A study of Mus musculus with 18 samples.

Results

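The transcription factors that mark the layers of the mouse cerebral cortex were followed by mRNA sequencing in 3 brain regions of adult Pcm1-/- and wild-type (WT) mice. The members are a list of names, drawn up with earlier results of these data known, and they are 7 of the 38561 genes counted: Cux1 and Cux2 for the upper layers, Rorb for layer IV, Fezf2 and Etv1 for layer V, and Tbr1 and Foxp2 for layer VI. Pcm1 encodes a scaffold protein of the centriolar satellites, the granules that surround the base of the cilium. The animals were adults on a C57BL/6J background. The Pcm1-/- animals (labelled PCM1 KO) carried a gene-trap allele made in E14Tg2a.4 embryonic stem cells and backcrossed to that strain for at least 3 generations. The controls were WT littermates. Frontal cortex, striatum and hippocampus were dissected from 3 WT and 3 Pcm1-/- animals, so each of the 6 groups held 3 libraries and each animal gave a library of every region.

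Cortical projection neurons acquire a layer identity from transcription factors that are switched on as the cells are born and that often repress one another. Cux1 and Cux2 are cut-like homeodomain proteins that shape the dendrites and spines of upper-layer neurons. Rorb is a nuclear receptor of layer IV, the layer that receives sensory input from the thalamus. Fezf2 is a zinc finger protein that specifies the subcortically projecting neurons of layer V, and Etv1 is an ETS-family factor of the same layer. Tbr1 is a T-box factor of the corticothalamic neurons of layer VI, and Foxp2 is a forkhead factor that is made in layer VI and also in striatal projection neurons and in the thalamus. In adult tissue these genes remain on in the neurons they helped to specify, and some of them are also used outside the cortex.

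On GRCm38, Cux1 (ENSMUSG00000029705) lies at chr5:136248135-136567490 on the minus strand and Cux2 (ENSMUSG00000042589) at chr5:121856366-122050102 on the minus strand. Rorb (ENSMUSG00000036192) lies at chr19:18930605-19111196 on the minus strand and Fezf2 (ENSMUSG00000021743) at chr14:12342094-12348189 on the minus strand. Etv1 (ENSMUSG00000004151) lies at chr12:38779380-38870484 on the plus strand, Tbr1 (ENSMUSG00000035033) at chr2:61802930-61814114 on the plus strand and Foxp2 (ENSMUSG00000029563) at chr6:14901349-15441977 on the plus strand. All are protein-coding genes, and none lies on chromosome 8, which carries Pcm1. Exons of Cux1 share 394 bases, or 1.97% of its exon bases, with the antisense gene Gm16599; the strand setting of the counting was not given in the sources used here, so reads of that stretch could belong to either gene. The Cux1 locus also encodes the Golgi protein CASP by alternative splicing, and counts per gene do not separate the transcripts. No other member shared exon bases with another annotated gene.

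Counts assigned to genes ranged from 24950537 to 33405081 per library. Pcm1 lay between 119.9 and 172 CPM (counts scaled to a common library size by the TMM method) in the 9 WT libraries and between 11.8 and 17.6 CPM in the 9 Pcm1-/- libraries, so every library followed its label. Striatal projection neuron markers summed to at least 9253 CPM in striatum and to at most 366 CPM elsewhere, and hippocampal field markers were highest in hippocampus. Markers of other tissues varied between libraries of a region: the striatal WT replicate 3 had 5621 CPM of Ttr, the transthyretin of choroid plexus, against 2.93 to 126 CPM in the other striatal libraries, and thalamic markers varied widely in hippocampus. All 3 striatal WT libraries came from lane 5 and the Pcm1-/- ones from lanes 3 and 4, a split in which the lane effect and the genotype effect cannot be told apart.

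**Figure D1:**
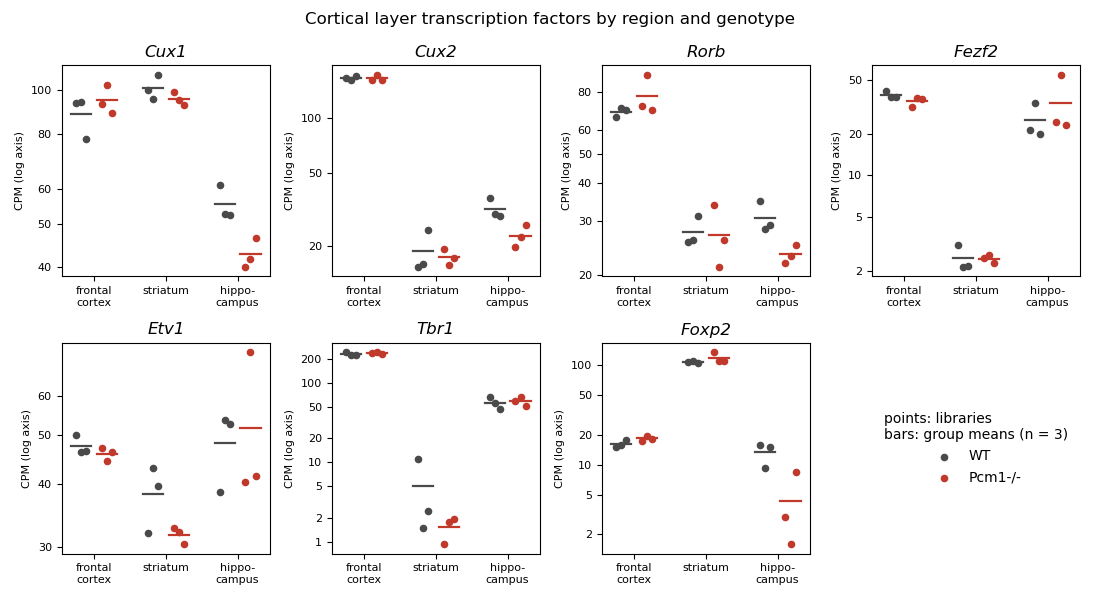
Normalized level of each member in all 18 libraries, in CPM on log axes, by region; grey points are WT and red points Pcm1-/- libraries, and bars are group means of 3. Tbr1 spanned the widest range, from 0.929 CPM in striatum to 240.1 CPM in frontal cortex.

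To compare members with one another, levels were divided by exon length (CPM per kilobase of merged exon, RPKM). In WT frontal cortex Tbr1 had the highest level at 41.9 ± 1.66 RPKM (SD, n = 3), followed by Cux2 at 16.5 ± 0.476, Fezf2 at 12.7 ± 0.704, Rorb at 6.21 ± 0.229, Cux1 at 4.42 ± 0.470, Etv1 at 3.58 ± 0.160 and Foxp2 at 0.992 ± 0.0825. In WT striatum the order was close to the reverse, with Foxp2 first at 6.60 ± 0.146 RPKM, Cux1 second at 5.07 ± 0.318, and Tbr1 and Fezf2 last at 0.899 ± 0.948 and 0.815 ± 0.172, whose ranges overlapped. In WT hippocampus Tbr1 at 10.2 ± 1.80 RPKM and Fezf2 at 8.26 ± 2.53 led and were within each other's spread, and Foxp2 was again last at 0.816 ± 0.222. The ranges of Cux1 and Cux2 did not overlap in WT cortex, whereas in WT hippocampus Cux1 at 2.77 ± 0.250 RPKM and Cux2 at 3.14 ± 0.413 RPKM overlapped.

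The first comparison asked where in the adult brain each member was expressed, within one genotype. Between WT striatum and WT frontal cortex, 4 of 7 members were lower in striatum (Tbr1, Fezf2, Cux2 and Rorb), beside 20.9% of all 17545 genes tested that were called lower. Foxp2 alone was higher in striatum, beside 20.6% of all genes called higher, and Cux1 and Etv1 did not pass the test. Between WT hippocampus and WT frontal cortex, 5 of 7 members were lower in hippocampus (all but Etv1 and Foxp2), beside 15.3% of genes called lower, and none was higher, beside 14.5% of genes called higher. Between WT striatum and WT hippocampus, Tbr1, Fezf2 and Cux2 were lower in striatum, 3 of 7 beside 14.8% of genes, and Cux1 and Foxp2 were higher, 2 of 7 beside 14.4% of genes. The call was an adjusted p under 0.05 in the quasi-likelihood test of edgeR, adjusted by Benjamini and Hochberg's method over all genes, and all adjusted p-values in these results come from that test unless another tool is named. In bulk tissue, fewer cells of a type and less RNA per cell cannot be told apart.

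**Figure D2:**
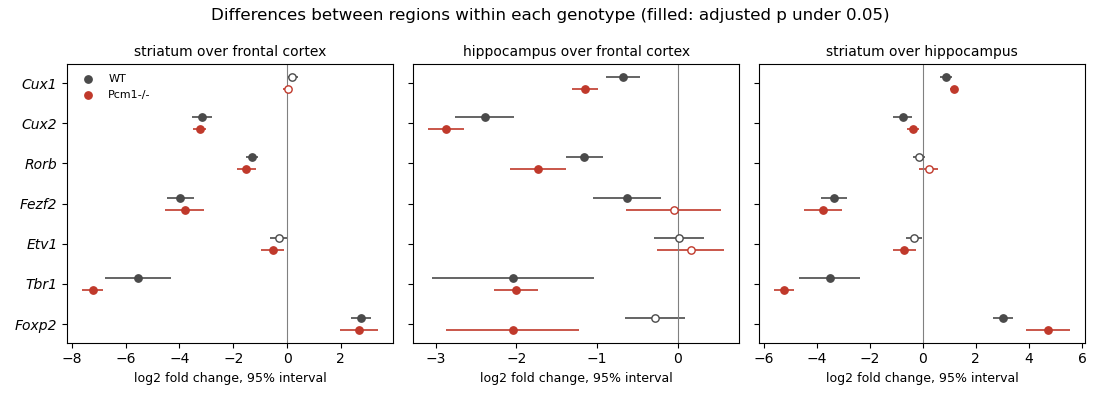
Log2 fold change of each member between regions with 95% intervals, in WT (grey) and Pcm1-/- (red) animals; filled points passed an adjusted p of 0.05 and open points did not. Cux2, Fezf2 and Tbr1 lay to the left of 0 and Foxp2 to the right in both striatal comparisons, in both genotypes.

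Among the upper-layer members, Cux2 stood at 166, 161 and 171 CPM in the WT frontal cortex libraries, at 36.4, 29.6 and 28.9 CPM in WT hippocampus and at 15.3, 15.9 and 24.4 CPM in WT striatum. No library of one region overlapped another, and the mean was 8.94 times higher in cortex than in striatum. The log2 difference of striatum from cortex was -3.16 ± 0.17 (SE, adjusted p = 3.79e-07), that of hippocampus from cortex -2.40 ± 0.17 (adjusted p = 5.35e-06) and that of striatum from hippocampus -0.76 ± 0.16 (adjusted p = 0.00528).

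Cux1, its paralog, had another pattern. Its WT values were 93.7, 94.3 and 77.7 CPM in cortex, 100.2, 95.8 and 108 CPM in striatum and 61.3, 52.8 and 52.4 CPM in hippocampus. Striatum was slightly above cortex in every library, but the difference of 0.20 ± 0.09 log2 units did not pass (adjusted p = 0.120). Hippocampus was lower than cortex by a log2 difference of -0.68 ± 0.10 (adjusted p = 0.000509), and striatum was higher than hippocampus by 0.88 ± 0.10 (adjusted p = 5.59e-05).

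Rorb, the layer IV receptor, stood at 65.9, 70.8 and 69.6 CPM in WT cortex, at 25.6, 26.0 and 31.3 CPM in WT striatum and at 34.9, 28.4 and 29.3 CPM in WT hippocampus. Cortex was above both other regions, with log2 differences of -1.31 ± 0.10 for striatum (adjusted p = 5.18e-06) and -1.16 ± 0.10 for hippocampus (adjusted p = 2.97e-05). Striatum and hippocampus overlapped and did not differ beyond their spread (-0.15 ± 0.10, adjusted p = 0.320).

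For the layer V member Fezf2, the WT values were 41.3, 37.6 and 37.6 CPM in cortex, 21.3, 34.1 and 20.2 CPM in hippocampus and 3.09, 2.16 and 2.20 CPM in striatum. Striatum was far below both other regions, 15.6 times below cortex by the means (log2 difference -3.96 ± 0.23, adjusted p = 5.21e-07) and 10.1 times below hippocampus (-3.34 ± 0.22, adjusted p = 1.64e-06). Hippocampus was below cortex in every library, yet the call was close to the threshold (-0.63 ± 0.19, adjusted p = 0.0307). It was lost when any one of the WT cortical replicates 1, 2 or 3 or of the WT hippocampal replicates 1 or 3 was left out, with adjusted p-values between 0.0661 and 0.103, and in the fits of all 18 libraries (adjusted p = 0.0624, and 0.0639 with lane).

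Etv1, the other layer V member, varied little between regions. It stood at 50.1, 46.3 and 46.5 CPM in WT cortex, at 38.5, 53.6 and 52.7 CPM in WT hippocampus and at 31.9, 43.0 and 39.5 CPM in WT striatum. No WT difference passed the test: the log2 difference of striatum from cortex was -0.32 ± 0.14 (adjusted p = 0.0969), that of striatum from hippocampus -0.33 ± 0.14 (adjusted p = 0.104) and that of hippocampus from cortex 0.02 ± 0.14 (adjusted p = 0.942). Without WT hippocampal replicate 1, the 2 striatal differences passed, at -0.32 (adjusted p = 0.0338) and -0.48 (adjusted p = 0.0131).

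Tbr1 of layer VI reached 240.1, 223 and 226 CPM in WT cortex and 66.4, 54.7 and 46.8 CPM in WT hippocampus, and fell to 10.9, 1.48 and 2.41 CPM in WT striatum. The groups did not overlap, and cortex was 46.6 times above striatum by the means. The log2 difference of striatum from cortex was -5.55 ± 0.55 (adjusted p = 2.32e-05), that of hippocampus from cortex -2.04 ± 0.45 (adjusted p = 0.00702) and that of striatum from hippocampus -3.50 ± 0.52 (adjusted p = 0.00047). The first striatal replicate lay well above the other two. Without it the difference from cortex was -6.88 and that from hippocampus -4.84.

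Foxp2 was the only member called higher in WT striatum than in both other regions, at 108, 110.1 and 105 CPM in WT libraries, against 15.2, 15.8 and 17.7 CPM in WT cortex and 15.8, 9.18 and 15.0 CPM in WT hippocampus. The striatal mean was 6.65 times the cortical one (log2 difference 2.74 ± 0.17, adjusted p = 9.41e-07) and 8.09 times the hippocampal one (3.02 ± 0.17, adjusted p = 5.38e-07). Cortex and hippocampus overlapped and did not differ beyond their spread (-0.28 ± 0.17, adjusted p = 0.234).

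In Pcm1-/- animals the same contrasts called 6 of 7 members between striatum and frontal cortex, 5 of 7 between hippocampus and frontal cortex and 6 of 7 between striatum and hippocampus. Over all genes the called shares were 54.3%, 41.5% and 45.0%. The directions of Cux2, Fezf2, Tbr1 and Foxp2 in striatum against cortex were those of WT, with log2 differences of -3.25 ± 0.10, -3.81 ± 0.33, -7.23 ± 0.18 and 2.68 ± 0.32. Etv1 was lower in Pcm1-/- striatum than in cortex (-0.53 ± 0.19, adjusted p = 0.0352), a call that was lost without any one of the 3 striatal or 3 cortical libraries, with adjusted p-values of 0.0645 to 0.0870. Etv1 was also lower in striatum than in hippocampus (-0.69 ± 0.19, adjusted p = 0.0124), and the difference was -0.36 without hippocampal replicate 2. Fezf2 stood at 24.5, 54.2 and 23.2 CPM in Pcm1-/- hippocampus and at 31.7, 37.0 and 36.1 CPM in Pcm1-/- cortex, and the groups overlapped (-0.05 ± 0.27, adjusted p = 0.896). Without hippocampal replicate 2, Fezf2 was lower in hippocampus (-0.56 ± 0.08, adjusted p = 0.000359) and so was Etv1 (-0.17, adjusted p = 0.0234). Foxp2 was lower in Pcm1-/- hippocampus than in cortex (-2.04 ± 0.37, adjusted p = 0.0013), and the difference was -2.98 without hippocampal replicate 3.

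The second comparison asked whether loss of Pcm1 altered the members within a region. In frontal cortex, 0 of 7 members were called, beside 1.74% of all genes, and 0 of 7 reached an unadjusted p under 0.05, beside 15.3% of all genes. DESeq2 also called 0 members, beside 690 of 13414 genes. The lowest adjusted p was 0.366, and the 95% intervals of the log2 differences together ran from -0.33 to 0.39.

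In frontal cortex the libraries of the 2 genotypes overlapped for 6 of the 7 members. Cux2 stood at 161, 172 and 162 CPM in Pcm1-/- cortex against the WT values above (log2 difference -0.02 ± 0.05, adjusted p = 0.929), and Tbr1 at 233, 239.7 and 228 CPM (0.02 ± 0.05, adjusted p = 0.915). Rorb stood at 71.6, 90.9 and 69.5 CPM, with replicate 2 above the others (0.16 ± 0.10, adjusted p = 0.481, and 0.03 without that library), and Cux1 at 93.0, 103 and 88.8 CPM (0.09 ± 0.09, adjusted p = 0.663). Foxp2 stood at 17.5, 19.6 and 18.3 CPM (0.18 ± 0.09, adjusted p = 0.373) and Etv1 at 47.1, 44.5 and 46.2 CPM (-0.06 ± 0.06, adjusted p = 0.670). Fezf2 was the exception, since all 3 Pcm1-/- libraries lay below the WT libraries (-0.16 ± 0.08, adjusted p = 0.366). Such a gap with Pcm1-/- lower was found in 9.28% of all genes, and a gap in either direction in 21.3%. Over 14 alternatives the log2 difference ran from -0.21 to -0.05 for Fezf2, from 0.03 to 0.25 for Foxp2 and from 0.01 to 0.16 for Cux1.

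Ratios between 2 members within a library, which do not depend on depth, were compared between genotypes in cortex. The ratio of Cux2 to Tbr1 counts was 0.723 ± 0.0328 in WT and 0.706 ± 0.0150 in Pcm1-/- cortex (SD, n = 3 each), with overlapping values. The ratio of Cux2 to Fezf2 was 4.28 ± 0.263 in WT and 4.74 ± 0.311 in Pcm1-/- cortex, and these also overlapped. The ratio of Tbr1 to Fezf2 did not overlap between genotypes: it was 5.81, 5.94 and 6.00 in the WT libraries and 7.37, 6.49 and 6.31 in the Pcm1-/- libraries, all of which were higher. This difference was not tested, it shares the Fezf2 counts described above, and single genes failed to overlap in either direction in 21.3% of cases. The coefficient of variation of a member among replicates ran from 2.57% to 15.3% in cortex, from 2.22% to 105% in striatum and from 6.59% to 83.0% in hippocampus. The standard error of the log2 difference between genotypes was larger in hippocampus than in cortex for all 7 members, and larger in striatum than in cortex for all but Cux1 and Foxp2.

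**Figure D3:**
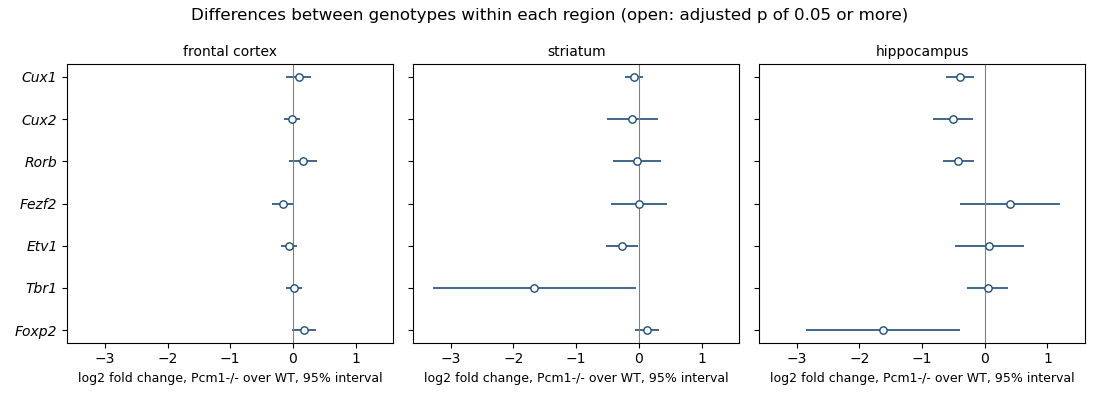
Log2 fold change of each member between Pcm1-/- and WT libraries with 95% intervals, by region; open points mark that no member passed an adjusted p of 0.05. Intervals in cortex were narrow, and those of Tbr1 in striatum and Foxp2 in hippocampus were the widest.

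In striatum, 0 of 7 members were called between genotypes, beside 0.0285% of all genes. DESeq2 called 0 members, beside 488 of 12722 genes. An unadjusted p under 0.05 was reached by 2 members, beside 13.5% of all genes. Pcm1-/- and WT libraries overlapped for every member, where 9.39% of all genes had Pcm1-/- lower and 9.60% had it higher without overlap. Etv1 stood at 32.6, 32.0 and 30.4 CPM in Pcm1-/- striatum (log2 difference -0.27 ± 0.11, adjusted p = 0.345), and the difference was -0.17 without WT replicate 2. Foxp2 stood at 134, 110.0 and 109.8 CPM (0.13 ± 0.08, adjusted p = 0.539); the difference was 0.03 without Pcm1-/- replicate 1, the highest of these 3, and 0.65 in the fit of all 18 libraries with lane, and it was not called in either.

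Tbr1 stood at 0.929, 1.78 and 1.92 CPM in Pcm1-/- striatum against 10.9, 1.48 and 2.41 CPM in WT (log2 difference -1.67 ± 0.70, adjusted p = 0.361). Replicate 1 of WT alone was high. In the same library Slc17a7, the vesicular glutamate transporter of pallial neurons, stood at 63.5 CPM against 9.50 to 26.4 CPM in the other striatal libraries, and the pallial gene Neurod2 stood at 4.78 CPM against at most 1.21 CPM. None of the 5 pallial markers was at 0 in striatum, and their summed level ran from 2886 to 3573 CPM in WT and from 2757 to 3224 CPM in Pcm1-/- libraries. Their log2 differences between genotypes in striatum were -1.37 for Slc17a7, -1.11 for Neurod2, -0.60 for Neurod6, -0.04 for Nrgn and -0.06 for Camk2a. Without WT replicate 1 the Tbr1 difference was -0.33 ± 0.36 (adjusted p = 0.693).

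In hippocampus, 0 of 7 members were called between genotypes, beside 0.0171% of all genes. An unadjusted p under 0.05 was reached by 4 members, beside 9.89% of all genes, and in the same 4 (Cux1, Cux2, Rorb and Foxp2) every Pcm1-/- library lay below every WT library, beside 6.46% of all genes. No member had every Pcm1-/- library above WT, beside 10.6% of all genes. The median log2 difference over the 7 members was -0.39, and that over all genes was 0.00 to 2 decimals.

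Cux1 stood at 40.2, 41.9 and 46.7 CPM in Pcm1-/- hippocampus against 61.3, 52.8 and 52.4 CPM in WT, or 77.3% of the WT mean (log2 difference -0.39 ± 0.10, adjusted p = 0.391). Cux2 stood at 19.6, 22.2 and 25.9 CPM against 36.4, 29.6 and 28.9 CPM, or 71.4% (-0.50 ± 0.14, adjusted p = 0.405). Rorb stood at 21.9, 23.1 and 25.0 CPM against 34.9, 28.4 and 29.3 CPM, or 75.7% (-0.42 ± 0.11, adjusted p = 0.396). None of these 3 differences passed the adjustment in edgeR, and with DESeq2 Cux1 passed (adjusted p = 0.0462), beside 220 of 12424 genes that DESeq2 called there.

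Markers of non-neuronal cells were read beside these members in hippocampus, and none of them passed the adjustment. All 3 endothelial markers had an unadjusted p under 0.05 with Pcm1-/- lower, beside 9.89% of all genes with such a p in either direction. Their median log2 difference was -0.46. Of 5 oligodendrocyte markers 1 had such a p, with a median of -0.47, and of 4 astrocyte markers 1, with a median of -0.19. None of 4 microglial markers had such a p, with a median of -0.22. No choroid plexus marker had such a p, with log2 differences from -0.70 (Ttr) to -0.53 (Kl). The summed endothelial level ran from 99.5 to 146 CPM in WT and from 82.3 to 93.7 CPM in Pcm1-/- hippocampus, and the summed oligodendrocyte level from 4688 to 9341 CPM in WT and from 3561 to 5811 CPM in Pcm1-/- hippocampus. The part of these cells in the values of Cux1, Cux2 and Rorb was not tested.

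Foxp2 stood at 2.96, 1.59 and 8.35 CPM in Pcm1-/- hippocampus against 15.8, 9.18 and 15.0 CPM in WT (log2 difference -1.63 ± 0.53, 95% interval -2.85 to -0.40, adjusted p = 0.428). Replicate 3 lay above the other Pcm1-/- libraries, and without it the difference was -2.57 ± 0.36 (adjusted p = 0.152). In the fits of all 18 libraries the difference passed, at -1.58 (adjusted p = 0.0407) and, with lane as a covariate, at -1.68 (adjusted p = 0.0309). Those fits called 205 and 160 of 17545 genes between genotypes in hippocampus.

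Thalamic genes followed Foxp2 over the hippocampal libraries. Tcf7l2, a transcription factor of thalamic neurons, stood at 108, 48.3 and 106 CPM in WT and at 6.77, 6.80 and 51.0 CPM in Pcm1-/- hippocampus. Slc17a6, the vesicular glutamate transporter of thalamic neurons, stood at 83.8, 56.2 and 117 CPM in WT and at 22.0, 17.2 and 53.1 CPM in Pcm1-/- hippocampus. The low WT library and the high Pcm1-/- library of Foxp2 were also those of Tcf7l2 and Slc17a6. All 7 thalamic markers were detected in every library, 6 of the 7 had an unadjusted p under 0.05 with Pcm1-/- lower and none passed the adjustment. Their summed level ran from 239.9 to 599.7 CPM in WT and from 109.6 to 289 CPM in Pcm1-/- hippocampus. The part of thalamic RNA in the values of Foxp2, Cux1, Cux2 and Rorb was not tested.

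Fezf2, Etv1 and Tbr1 overlapped between genotypes in hippocampus. Fezf2 stood at 24.5, 54.2 and 23.2 CPM in Pcm1-/- against 21.3, 34.1 and 20.2 CPM in WT (log2 difference 0.41 ± 0.34, adjusted p = 0.711), a difference that turned to -0.087 without Pcm1-/- replicate 2, and Etv1 at 40.4, 73.2 and 41.5 CPM against 38.5, 53.6 and 52.7 CPM (0.08 ± 0.24, adjusted p = 0.928). Replicate 2 was the highest library of its group for both genes in both genotypes. Tbr1 stood at 58.4, 66.2 and 51.2 CPM against 66.4, 54.7 and 46.8 CPM (0.05 ± 0.14, adjusted p = 0.922).

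**Figure D4:**
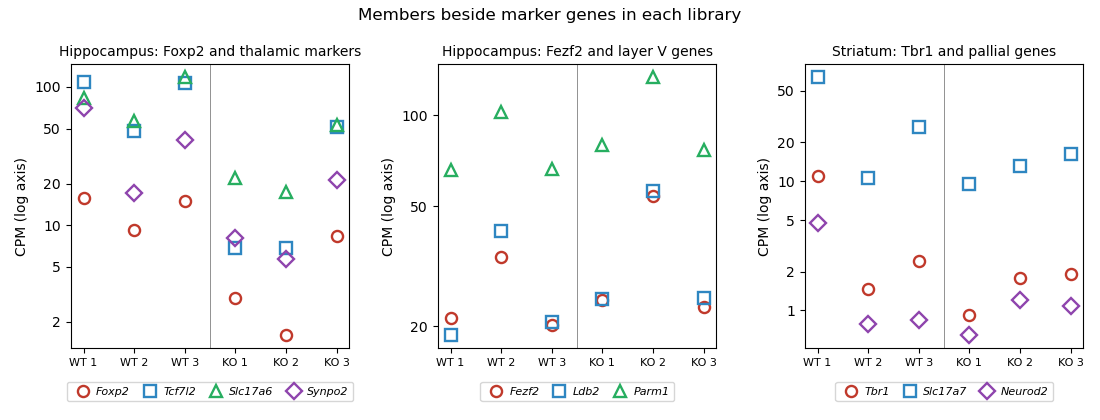
Members beside marker genes in each library, in CPM on log axes; WT and KO (Pcm1-/-) replicates 1 to 3 stand left and right of the line. Foxp2 and the thalamic markers are low together in Pcm1-/- hippocampal replicates 1 and 2. Fezf2 is high with the layer V genes Ldb2 and Parm1 in replicate 2 of both genotypes. Tbr1 is high with the pallial genes Slc17a7 and Neurod2 in WT striatal replicate 1.

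The third comparison asked whether the effect of genotype differed between regions, by an F test of both interaction terms over all 18 libraries. None of the 7 members was called, beside 0.0114% of all genes. DESeq2 called 0 members, beside 94 of 14813 genes. An unadjusted p under 0.05 was reached by 4 members (Cux1, Rorb, Tbr1 and Foxp2), beside 5.54% of all genes. The lowest was that of Foxp2 (adjusted p = 0.451), whose difference between genotypes was lower in hippocampus than in cortex by -1.77 ± 0.46 log2 units. Without Pcm1-/- hippocampal replicate 3 the Foxp2 test passed (adjusted p = 0.00329). For Cux1 the difference between genotypes was lower in hippocampus than in cortex by -0.47 ± 0.13 log2 units (adjusted p of both terms = 0.575).

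Other genes of the cortical layers, relatives of the members and known targets were read from lists. In frontal cortex, of 14 further upper-layer genes 1 fell and 0 rose between genotypes; of 5 layer IV, 14 layer V and 12 layer VI genes none was called in either direction; of 11 relatives of the members none was called; and of 10 targets 1 rose, beside the 1.74% of all genes called. The gene that fell was Otof, which encodes otoferlin, at 26.6, 20.7 and 28.8 CPM in WT and between 10.9 and 15.3 CPM in the 3 Pcm1-/- cortex libraries (log2 difference -1.01 ± 0.15, adjusted p = 0.0195). The call held in 8 of 14 alternatives and was lost with lane in the fit (adjusted p = 0.0638) and without WT replicate 1, Pcm1-/- replicate 1 or Pcm1-/- replicate 2 (adjusted p-values from 0.0653 to 0.129), and in the fits of all 18 libraries (adjusted p = 0.0569, and 0.118 with lane). The target that rose was Slc17a7, from 1918, 1986 and 1922 CPM in WT to 2315, 2425 and 2282 CPM in Pcm1-/- cortex (0.26 ± 0.05, adjusted p = 0.0396), and it was called in 6 of 14 alternatives. Its call was lost with lane in the fit (adjusted p = 0.144) and when any library but WT replicate 3 was left out (adjusted p-values from 0.0826 to 0.190), and in the fits of all 18 libraries (adjusted p = 0.872, and 0.939 with lane). Slc17a7 is also a pallial marker. Of the other pallial markers, Camk2a was called lower in Pcm1-/- cortex, close to the threshold (-0.32 ± 0.06, adjusted p = 0.0475). Neurod2 (0.10), Neurod6 (-0.01) and Nrgn (-0.06) were not called.

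No gene of these lists was called by edgeR between genotypes in striatum or hippocampus, where at most 5 genes of any one list had an unadjusted p under 0.05 (5 of the 12 layer VI genes in each region), beside 13.5% of all genes in striatum and 9.89% in hippocampus. The median log2 difference in frontal cortex was 0.03 for the upper-layer list, 0.11 for layer IV, 0.04 for layer V, 0.13 for layer VI, -0.08 for the relatives and 0.05 for the targets, and over all genes it was -0.01.

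The same lists differed between WT regions. In striatum against frontal cortex, 9 of 14 upper-layer genes were lower and 3 higher, 8 of 14 layer V genes were lower and 4 higher, 7 of 12 layer VI genes were lower and 3 higher, and of 5 layer IV genes 1 was lower and 1 higher, beside 20.9% of all genes lower and 20.6% higher. Bcl11b, known for layer V and for striatal projection neurons, was higher in striatum by 2.51 ± 0.10 (adjusted p = 5.48e-08), and Syt6 of the layer VI list by 3.23 ± 0.29 (adjusted p = 1.19e-05). Of the 10 targets, 6 were higher and 3 lower in striatum; the lowest was Slc17a7 (-5.86 ± 0.56, adjusted p = 1.72e-05; -6.72 without WT striatal replicate 1).

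In WT hippocampus against frontal cortex, 9 of 14 upper-layer genes were lower and 2 higher, 1 of 5 layer IV genes was lower and 2 higher, 5 of 14 layer V genes were lower and 4 higher, and 4 of 12 layer VI genes were lower and 2 higher, beside 15.3% of all genes lower and 14.5% higher. Otof (-3.25 ± 0.18, adjusted p = 1.57e-06) and Mef2c (-2.61 ± 0.10, adjusted p = 3e-07) were lower, and Mdga1, a cell adhesion protein, was higher (3.09 ± 0.12, adjusted p = 3e-07). The medians of the log2 differences from cortex were -1.10 in striatum and -1.11 in hippocampus for the upper-layer list, 0.42 and -0.05 for the layer IV list, -0.55 and 0.06 for the layer V list and -1.32 and -0.67 for the layer VI list, and over all genes they were 0.02 and -0.01.

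For the 5 members whose WT region means spanned at least 1 log2 unit, the genes with the most similar pattern over the 18 libraries were sought by the root mean square difference of centred log2 CPM. Nearest to Cux2 was Pdzrn3 at 0.239 log2 units, to Rorb Hecw1 at 0.211, to Fezf2 Psrc1 at 0.327, to Tbr1 Emx1 at 0.502 and to Foxp2 Unc13c at 0.513. Emx1, a homeobox gene of the developing pallium, stood at 17.5, 20.6 and 20.2 CPM in WT cortex and at 0.772 CPM or less in every striatal library. Rspo2, at 0.592, was also among the 3 genes nearest to Tbr1, and the next neighbours of Foxp2 were Syt6 at 0.576 and Grm4 at 0.610. These points share region, depth and library, and the values describe likeness only.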

How the data were processed

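RNA of frontal cortex, striatum and hippocampus was made into KAPA stranded mRNA-seq libraries and sequenced on an Illumina HiSeq. According to the study's methods, the authors trimmed reads with Trim Galore and cutadapt, aligned the trimmed reads with STAR (GRCm38), retained those placed at 1 position only and deposited raw counts per gene from HTSeq; tool versions and the strand setting are not given in the sources used here. Rows that name no gene held 10.8% to 13.2% of each table and were left out. Animal identity came from the names of the deposited tables: replicates 1, 2 and 3 are the same animals in every region, except that WT striatal replicates 1, 2 and 3 are the animals of WT replicates 3, 1 and 2 elsewhere.

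Genes with at least 10 counts in 1 or more of 18 libraries were tested: 17545. Genotypes were compared within a region, regions within a genotype, with edgeR 4.0.16 (TMM, quasi-likelihood test, Benjamini-Hochberg over all genes), and interactions over all libraries; intervals are 95%. Levels are CPM, with a prior of 2 for log2 values; lengths and positions are from GENCODE M21. Only fits of genotypes within a region and of WT striatum against WT cortex were tried on simulated counts. The fits of all regions of a genotype, the interaction and the blocks were not simulated. Alternatives were DESeq2 1.42.0, its size factors, other count filters, lane, blocks and leaving out each library. Members and lists were chosen with earlier results of these data known. All members are named; of other lists, up to 4 called genes per list and comparison could be named; 1 listed gene is not reported here.

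Correlations of deviations from group means between libraries of 1 animal ran from 0.110 to 0.318 in Pcm1-/- and from 0.0801 to 0.386 in WT animals. Precision is limited by 3 animals per group and, for members under 100 counts in a library (Fezf2 and Tbr1 in striatum, Foxp2 in hippocampus), by counting error.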

Additional observations from a re-analysis of the deposited data

How the results depend on the processing

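The counts of members called between genotypes in frontal cortex and striatum were 0 in every alternative run, and so were those for the hippocampus except 1 with DESeq2, 1 with all 18 libraries and 1 with all 18 libraries and lane. Over all genes, those 3 hippocampal fits called 220 of 12424, 205 of 17545 and 160 of 17545, against 3 of 17545 in the main fit. The counts between regions stayed within 4 to 6 in the alternatives that kept every library. That of WT hippocampus against frontal cortex moved to 4 with all 18 libraries, with or without lane, where Fezf2 was lost. That of Pcm1-/- striatum against hippocampus moved to 5 with all 18 libraries and lane, where Cux2 was lost. Leaving out each library gave 0 members called between genotypes in each of the 3 regions, 0 to 1 for the interaction (1, Foxp2, without Pcm1-/- hippocampal replicate 3), 5 to 6 for WT striatum against frontal cortex, 4 to 5 for WT hippocampus against frontal cortex, 5 to 6 for WT striatum against hippocampus, and 5 to 6, 5 to 7 and 6 to 6 for the same 3 contrasts in Pcm1-/- animals. The causes were not tested. The order of members by level did not change with DESeq2 size factors, which scale all genes of a library alike and so could hardly change it. Exon length, on which the order depends, was not varied. Lane could not be fitted within striatum.

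Differences that changed sign in alternatives that kept every library were near 0; without Pcm1-/- hippocampal replicate 2, that of Fezf2 between genotypes turned from 0.41 to -0.087. With lane and all 18 libraries, Rorb between genotypes in striatum was 0.052 and Cux1 between Pcm1-/- striatum and cortex -0.015; with lane in the hippocampal fit, Tbr1 was -0.021; with no filter, Fezf2 between genotypes in striatum was 0.00072. Without 1 library each, the log2 differences between genotypes ran from -0.050 to 0.0074 for Cux2 and from -0.0040 to 0.050 for Tbr1 in cortex; from -0.22 to 0.15 for Cux2, from -0.22 to 0.12 for Rorb and from -0.090 to 0.19 for Fezf2 in striatum; and from -0.087 to 0.68 for Fezf2, from -0.25 to 0.21 for Etv1 and from -0.075 to 0.19 for Tbr1 in hippocampus. Between regions they ran from -0.063 to 0.16 for Etv1 (WT hippocampus against cortex), from -0.029 to 0.079 for Cux1 (Pcm1-/- striatum against cortex), and, for Pcm1-/- hippocampus against cortex, from -0.56 to 0.16 for Fezf2 and from -0.17 to 0.31 for Etv1.

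Same-numbered WT and Pcm1-/- libraries had correlations of deviations from their group means of 0.0428 to 0.260 in cortex (mean of other-numbered pairs -0.083), 0.0955 to 0.507 in hippocampus (-0.13) and -0.269 to 0.178 in striatum. Paired in striatum by the number that each animal has in cortex, a pairing added after seeing the data, they were 0.0635 to 0.388. All 9 pairs by animal were positive, but 1 in each region was under 0.1 and no label gives such a pairing, so it was not taken as established; each library correlated best with its own number in cortex but not in hippocampus. Under a block on that number (replicate block) the counts of members were 0 in each region and those between regions were as without it; all genes called moved from 306 to 665 in cortex, from 5 to 3 in striatum and from 3 to 9 in hippocampus, and the signs of Fezf2 between genotypes in striatum (0.014) and of Etv1 between WT hippocampus and cortex (-0.0028) changed. With the striatal block by animal, 200 genes and 0 members were called, and Fezf2 was 0.013. The animal as a block changed no count of members between regions or for the interaction. Over all genes, DESeq2 called 690 in cortex, 488 in striatum and 220 in hippocampus.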

Other observations

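Within the 6 hippocampal libraries, in a search made after the values were seen, the gene nearest to Foxp2 by the same measure was Patj at 0.183 log2 units, and the thalamic marker Slc17a6 followed at 0.311 behind Etnppl at 0.265. Nearest to Fezf2 were the layer V genes Ldb2 at 0.137 and Parm1 at 0.146. Ldb2 stood at 18.7, 41.2 and 20.6 CPM in WT and at 24.6, 56.3 and 24.9 CPM in Pcm1-/- hippocampus, high in replicate 2 of both genotypes as Fezf2 was. Rorb was the gene nearest to Cux1, at 0.0315 log2 units, while Sh3kbp1 at 0.0245 and Epas1 at 0.0267 were nearer to Rorb than Cux1 was. Within the 6 striatal libraries, Slc17a7 was nearest to Tbr1, at 0.300.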
